A study of Caenorhabditis elegans with 8 samples.

Results

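Germ granule protein mRNAs were examined among the RNAs recovered with FOG-3 in fourth-stage (L4) larvae of the nematode Caenorhabditis elegans. The set was fixed by name and holds 9 of the 12240 gene rows of the count table: glh-1, glh-2, glh-3, glh-4, pgl-1, pgl-2, pgl-3, cgh-1 and car-1. Their WormBase IDs, in the same order, are WBGene00001598, WBGene00001599, WBGene00001600, WBGene00001601, WBGene00003992, WBGene00003993, WBGene00003994, WBGene00000479 and WBGene00012484. Each symbol was paired with its ID by the list that defined the set, since the count table gives IDs alone. All 9 symbols are protein-coding genes in the RefSeq gene table of assembly WBcel235, which places the glh genes and car-1 on chromosome I, cgh-1 and pgl-2 on III, pgl-1 on IV and pgl-3 on V.

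The libraries were made by iCLIP, in which ultraviolet light links RNA to the protein that holds it and the linked RNA is purified with that protein and sequenced. All 8 libraries came from worms with a single integrated copy of FLAG-tagged FOG-3, a Tob family protein needed for germ cells to become sperm. For 4 FOG-3 libraries the tag antibody was used, and for 4 controls it was left out. The controls therefore hold the tagged protein too, and they measure RNA carried through without the antibody rather than RNA that the antibody itself might bind. The promoter of the tagged copy, the state of the native gene and the sex of the larvae are not given in the labels. No library of input RNA was analysed here, so a more abundant mRNA and a more often bound one cannot be told apart.

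P granules are RNA and protein bodies at the nuclear surface of C. elegans germ cells, where transcripts leaving the nucleus meet proteins that govern their translation and silencing. PGL proteins form the body of these granules, and GLH proteins are helicases related to Vasa that sit at their nuclear side. CGH-1, a DEAD-box helicase of the DDX6 family, and CAR-1, its partner of the LSM14 family, join P granules and also form separate bodies in which mRNAs are stored or repressed. Here the mRNAs that encode these proteins were counted, not the proteins.

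The FOG-3 libraries held 76790 to 186739 gene-assigned reads and the controls 14964 to 74892. The columns do not carry the replicate numbers of the labels. The libraries are therefore named F1 to F4 (FOG-3) and C1 to C4 (control), each numbered from the shallowest to the deepest. Levels are given as CPM, read counts put on a common library size after those sizes were rescaled with TMM factors, which were 1.47 to 1.66 in FOG-3 libraries and 0.593 to 0.716 in controls. On that scale 1 read was worth 3.58 to 8.43 CPM in FOG-3 libraries and 18.6 to 112.6 CPM in controls. The most abundant row of the table had a share of 27.9% ± 2.5 (SD, n = 4) of the reads with FOG-3 against 49.8% ± 6.9 without the antibody, and results are given under several scalings for this reason. Marker genes of the germline and of other tissues were not analysed here, because the reference table does not hold WormBase IDs.

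Reads of the 9 mRNAs were a larger share of the FOG-3 libraries than of the controls, and most of the FOG-3 reads came from 1 gene, cgh-1. Together the 9 rows had 768 reads in FOG-3 libraries, of which 466 were cgh-1, 135 pgl-1 and 116 car-1. The controls had 48 reads in all, of which 17 were cgh-1, 16 car-1 and 11 pgl-1. Their share of the reads was 0.178% ± 0.018 (SD, n = 4) with FOG-3, from 0.162% to 0.199%, and 0.0313% ± 0.0065 in controls, from 0.0261% to 0.0401%. Every FOG-3 library lay above every control on this share. This share is scaled on library totals alone and moves with the share taken by the abundant rows. Pooled, it was 5.05 times larger with FOG-3 (95% counting interval 3.77 to 6.91), and without cgh-1 the other 8 rows had 302 reads against 31, a ratio of 3.07 (2.12 to 4.60). The median fitted fold of all tested rows with totals was 3.83, and 63.8% of them had every FOG-3 library above every control, so the 8 rows without cgh-1 lay near this background. Of the 9 rows, 3 (cgh-1, pgl-1 and car-1) had enough reads to pass the filter on low counts and 6 did not. The filter asked for 131.9 CPM by library totals in 4 libraries, and all 3 met it through the 4 FOG-3 libraries. In controls that level was reached by 2 libraries for cgh-1, 1 for car-1 and 0 for pgl-1. The tests below are therefore on rows that were let in by their FOG-3 level. Levels were not compared between genes, since transcript lengths were not used here.

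**Figure D1:**
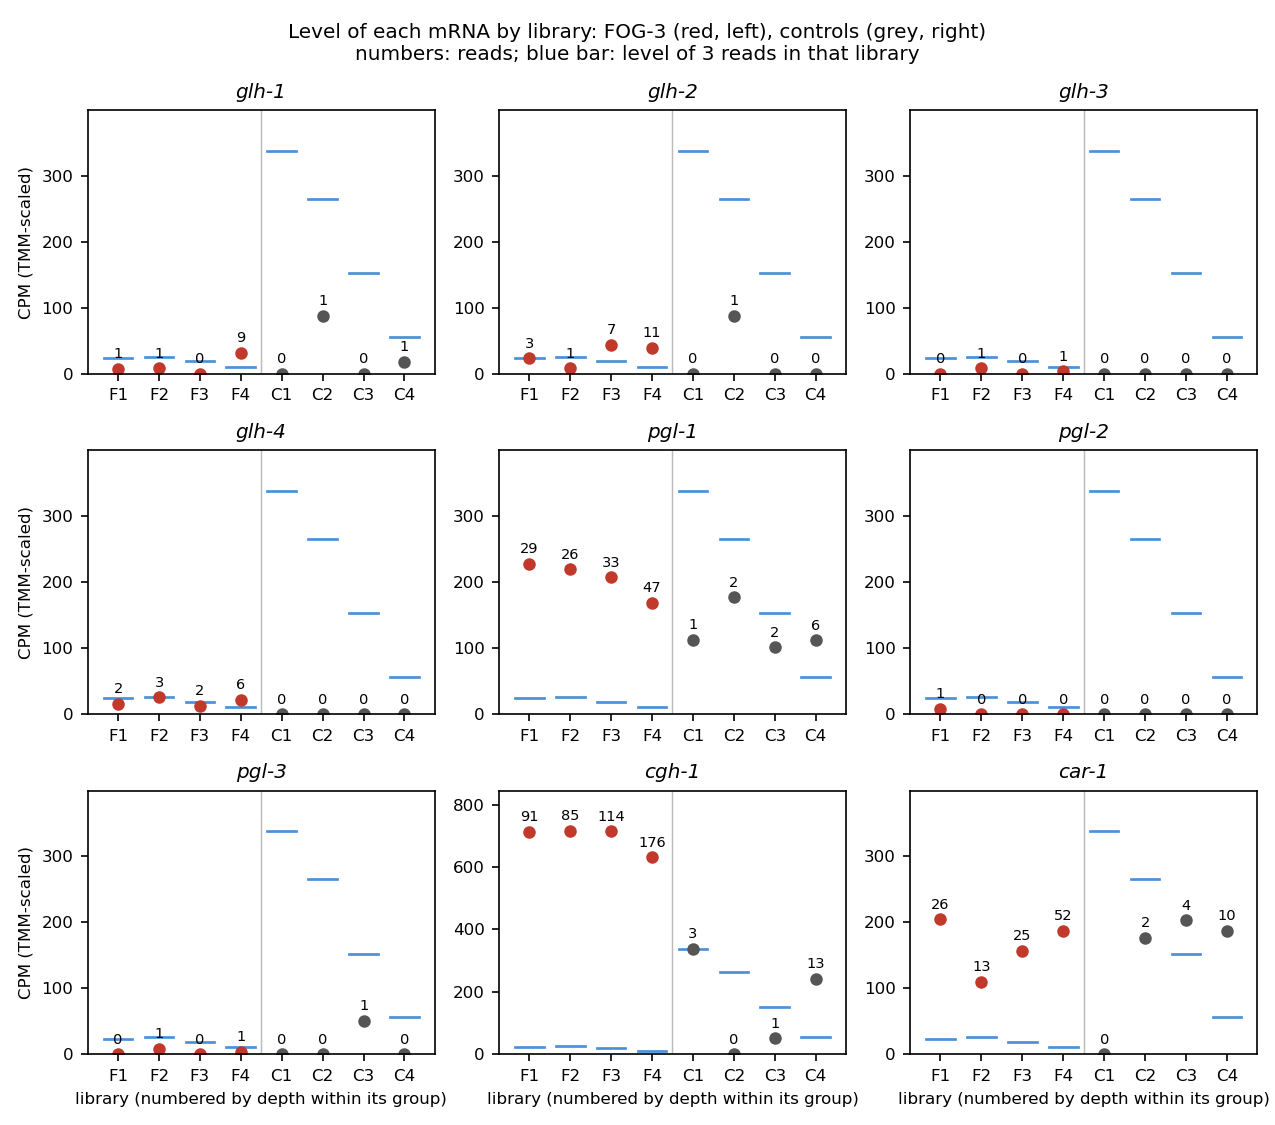
TMM-scaled CPM of each of the 9 mRNAs (vertical axis, linear, from 0) in each library (horizontal axis, libraries numbered by depth within a group). Points are single libraries with their read counts printed above, FOG-3 in red and controls in grey, and the blue bars mark the level of 3 reads in that library. All FOG-3 points of cgh-1 lie at 631 CPM or above and its controls at 338 CPM or below, while the points of car-1 overlap.

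Cgh-1 mRNA was recovered with FOG-3 above the control level. It had 91, 85, 114 and 176 reads in FOG-3 libraries F1 to F4, and 3, 0, 1 and 13 reads in controls C1 to C4. The levels in the same order were 713, 716, 714 and 631 CPM with FOG-3 and 338, 0, 50.7 and 242 CPM in controls. The groups did not overlap: the lowest FOG-3 library, F4, stood well above the highest control, C1, whose level rests on 3 reads.

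The mean level of cgh-1 was 694 ± 42 CPM (SD, n = 4) with FOG-3 against 158 ± 159 CPM in controls. This is a rise of 1.95 ± 0.35 (SE) on the log2 scale, with an adjusted p of 1.26e-07 from edgeR's quasi-likelihood test over 886 rows. Among these rows 45.3% were called higher (adjusted p under 0.05) and 27.5% lower, so a call by itself is common here. Of the tested rows, 43.5% had every FOG-3 library above every control on this scale. The fold of cgh-1 lay above that of 64.3% of tested rows and below the median of the rows called higher, which was 3.08 on the log2 scale. The spread of cgh-1 between FOG-3 libraries, 41.9 CPM, was no larger than the 66.7 CPM that counting error alone gives at these depths. In the controls the spread was as large as the mean.

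Pooled over libraries, the level of cgh-1 was 3.75 times higher in FOG-3 (95% interval 2.31 to 6.49, exact and for counting error only). With library totals in place of TMM the ratio was 8.65 (5.34 to 14.97). At the FOG-3 level, equal recovery would have given 63.7 reads in the controls with TMM and 147 with totals, where 17 were found. Cgh-1 was called higher in each of the 20 alternative settings, with log2 fold changes of 1.82 to 3.92 and adjusted p from 1.26e-21 to 0.000954. In these settings 7.75% to 79.7% of all tested rows were called higher. The largest fold and the smallest adjusted p came with scaling on the most abundant row, which gave the 79.7%. Without control C4, the deepest, its log2 fold change was 3.36, the farthest from the value over all libraries among those that left out 1 library. The median of all tested rows moved as well, from 0.74 to 1.79. Cgh-1 then lay 1.58 above this median, against 1.21 over all libraries. The gene span of cgh-1 overlaps 1 other gene of the RefSeq table, a small nucleolar RNA gene (C07H6.10). Reads over several genes were kept apart from the gene rows, at a mean of 0.648% in FOG-3 libraries and 0.380% in controls. Whether this took in reads shared with C07H6.10 depends on the annotation and strand setting used for counting. Neither these nor the place of the reads within the gene is given in the sources used here.

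Car-1, which encodes the partner of CGH-1, did not differ between the groups beyond the spread of the libraries under TMM. Its fitted change moved upward under the other scalings, as did the median of all tested rows. It had 26, 13, 25 and 52 reads in F1 to F4 and 0, 2, 4 and 10 in C1 to C4. The levels were 204, 110, 157 and 186 CPM in FOG-3 libraries and 0, 176, 203 and 186 CPM in controls. The groups overlapped almost wholly, and the 0 belongs to the shallowest control, where 3 reads would be 338 CPM.

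The mean of car-1 was 164 ± 41 CPM (SD, n = 4) with FOG-3 against 141 ± 95 CPM in controls. On the log2 scale the change was -0.02 ± 0.43 (SE, adjusted p = 0.972 in edgeR). The controls held 16 reads, and equal recovery would have given 15.9 with TMM and 36.6 with totals. With totals the levels were 161 to 339 CPM in FOG-3 libraries and 0 to 134 CPM in controls and no longer overlapped, as for 63.8% of tested rows. The fitted rise was then 1.19 ± 0.42 (log2, edgeR adjusted p = 0.00637), in a fit that called 67.3% of rows higher.

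Of the PGL genes only pgl-1 had more than 2 reads in FOG-3 libraries, and its call depended on the scaling. Pgl-1 encodes a scaffold protein of P granules. It had 29, 26, 33 and 47 reads in F1 to F4 and 1, 2, 2 and 6 in C1 to C4, and was the 1 row of the 9 with a read in all 8 libraries. The levels were 227, 219, 207 and 168 CPM in FOG-3 libraries and 113, 176, 101 and 112 CPM in controls. FOG-3 library F4 lay just below control C2, whose level rests on 2 reads, so the groups overlapped by this pair alone.

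The mean of pgl-1 was 205 ± 26 CPM (SD, n = 4) with FOG-3 against 126 ± 34 CPM in controls. On the log2 scale the difference was 0.76 ± 0.47 (SE, adjusted p = 0.136 in edgeR), with 50.7% of tested rows below it. With totals the levels were 252 to 378 CPM in FOG-3 libraries and 65.3 to 107.1 CPM in controls. They did not overlap, and 63.8% of tested rows likewise had every FOG-3 library above every control. The fitted rise was then 1.97 ± 0.45 (log2, edgeR adjusted p = 2.72e-05), in a fit that called 67.3% of rows higher. Of the tested rows, 50.7% lay below it in that fit too. The pooled ratio was 1.68 (95% counting interval 0.908 to 3.44) with TMM and 3.87 (2.10 to 7.94) with totals. Pgl-1 also passed the threshold with upper-quartile factors (edgeR adjusted p = 0.0458, 49.7% of rows called higher). It passed without FOG-3 library F2 (adjusted p = 0.0272, 53.5% of rows called higher). It did not with limma-voom (adjusted p = 0.293, 44.2% of rows called higher).

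The other PGL genes were barely detected. Pgl-3, whose protein is a close relative of PGL-1 in the same granules, had 1 read each in FOG-3 libraries F2 and F4 and 1 in control C3. Pgl-2, a further PGL family gene, had 1 read, in FOG-3 library F1. Both groups lay at or under 3 reads for each of these genes, so no pooled ratio is given for them. In the deepest FOG-3 library 3 reads are 10.8 CPM.

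The glh mRNAs were detected at low counts, and no difference between the groups passed the test for any of them (edgeR without the filter, adjusted p from 0.278 to 0.942). Together they had 48 reads with FOG-3 and 3 in controls, a pooled ratio of 2.19 with TMM (95% counting interval 0.705 to 10.98) and 5.05 with totals (1.63 to 25.3). GLH-1 and GLH-2 are closely related proteins. The treatment of reads that match both genes is not given in the sources used here, so their separate counts are uncertain.

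Glh-2 had 3, 1, 7 and 11 reads in F1 to F4 and 1 read in the controls, in C2. Its pooled ratio was 3.01 with TMM (95% counting interval 0.486 to 124.1) and 6.94 with totals (1.12 to 286.4). Equal recovery would have given 3.01 control reads with TMM and 6.94 with totals.

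Glh-4, a further helicase gene of the family, had 2, 3, 2 and 6 reads in F1 to F4 and none (0) in any control. It was the 1 glh gene whose groups did not overlap. With 0 control reads, any read in each FOG-3 library gives this. Of the tested rows, which do not include glh-4, 43.5% had every FOG-3 library above every control with TMM and 63.8% with totals. Its FOG-3 level was 18.7 ± 5.7 CPM (SD, n = 4), which is below the 55.9 to 338 CPM that 3 reads make in single controls. Equal recovery would have given 1.78 control reads with TMM and 4.10 with totals. The exact 95% counting interval of the ratio began at 0.962 with totals and at 0.417 with TMM, so it includes equal levels under both scalings.

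Glh-1, the closest C. elegans relative of Vasa, had 1, 1, 0 and 9 reads in F1 to F4 and 1 read each in controls C2 and C4. The groups overlapped, and 9 of its 11 FOG-3 reads came from the deepest library. Its pooled ratio was 0.752 (95% counting interval 0.164 to 6.98) with TMM and 1.74 (0.379 to 16.1) with totals, and no difference was detectable at this depth. Glh-3 had 2 FOG-3 reads, in F2 and F4, and none (0) in controls.

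**Figure D2:**
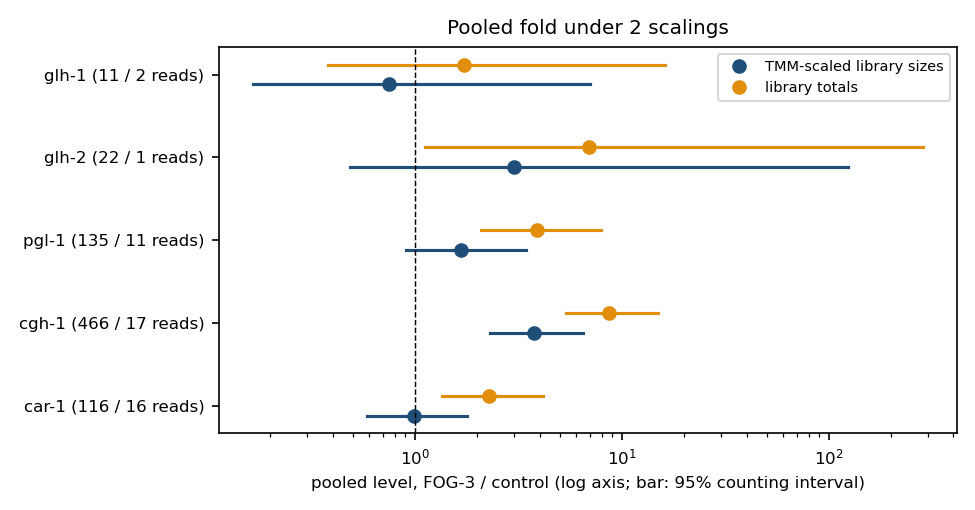
Pooled level in FOG-3 over control (horizontal axis, log scale) for the 5 mRNAs with reads in both groups and more than 3 FOG-3 reads, with TMM-scaled library sizes in blue and library totals in orange. Points are ratios and bars are exact 95% intervals for counting error only. With TMM only the interval of cgh-1 (2.31 to 6.49) lies wholly above 1, and with totals those of glh-2, pgl-1 and car-1 do as well. With totals the median fitted fold of all tested rows was itself 3.83, and 67.3% of them were called higher. Against that median, pgl-1 (3.87) lies close and car-1 (2.29) below, and the ratio of glh-2 rests on 1 control read.

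All 9 mRNAs could be tested once the filter on low counts was dropped. In that fit of 12240 rows, cgh-1 and pgl-1 were called higher, 7 of the 9 were not called and none (0) was called lower. Of all rows 7.75% were called higher and 1.08% lower, but this share depends on which rows are admitted. With at least 1 CPM in 4 libraries, 22.3% of 5258 rows were called higher. With the default filter it was 45.3% of 886 rows. Neither of these filtered fits tested all 9, so their shares are not matched to the 2 calls among the 9. The 2 calls are not read as a result about the 9. In the fit without the filter, 3 of the 9 had an unadjusted p under 0.05 in edgeR, the third being glh-4. The share of all rows at that level was not counted here, so this number is not read as a result about the 9. Cgh-1 rose by 2.58 ± 0.38 on the log2 scale (SE, adjusted p = 1.25e-09 in edgeR) and pgl-1 by 1.38 ± 0.47 (adjusted p = 0.0376). Glh-4 had an unadjusted p of 0.0451 and an adjusted p of 0.278. The median log2 fold change of the 9 was 1.38, which is the value of pgl-1, and that of all 12240 rows was 1.15. Pgl-2, with 1 read in all, was also fitted at 1.15. The median of all rows is thus a value that 1 read can give, and these medians are not a comparison of recovery.

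Cgh-1 lay above the median of all tested rows, pgl-1 close to it and car-1 below it, and the median itself moved with the scaling. The median log2 fold change of all 886 tested rows was 0.74 with TMM and rose to 1.94 with library totals and 2.68 with scaling on the most abundant row of the table. Relative to this median, cgh-1 lay 1.21 to 1.23 higher under all 6 scalings. Pgl-1 lay 0.02 to 0.03 above it. Car-1 lay below it, at -0.76 to -0.73. Cgh-1 exceeded car-1 by 1.96 to 1.99 on the log2 scale and pgl-1 by 1.19 to 1.20. A change of scaling moves all rows by nearly the same amount, so these distances had little room to differ and say nothing about stability. Leaving out 1 library moved the distance of cgh-1 to between 0.62 (without C3) and 1.58 (without C4). It moved that of pgl-1 to between -0.51 and 0.14, above the median in 2 of 8 cases, and that of car-1 to between -1.13 and -0.62. With limma-voom pgl-1 lay at -0.25. These differences were not tested, since the genes were set side by side after their values were seen.

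**Figure D3:**
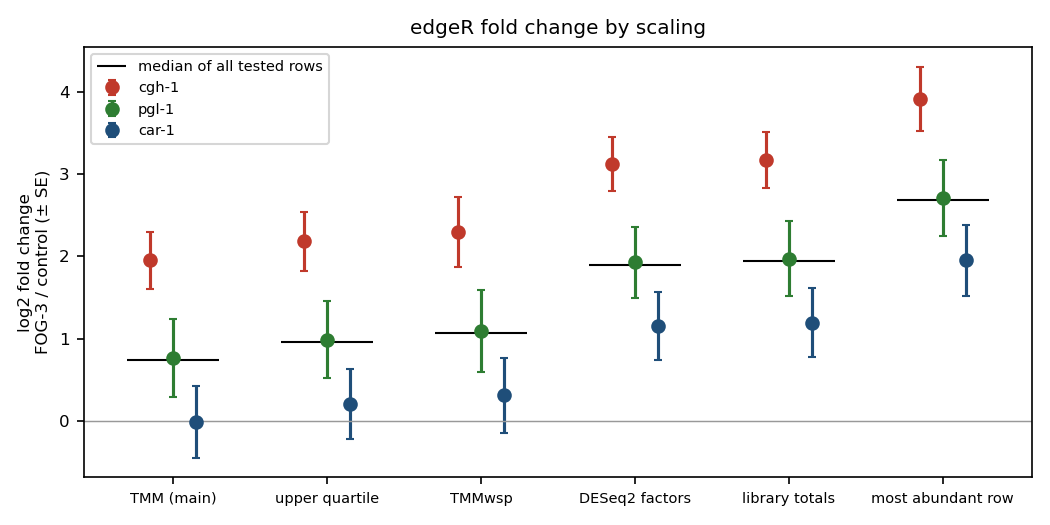
Log2 fold change of cgh-1 (red), pgl-1 (green) and car-1 (blue) from edgeR (vertical axis, ± SE) under 6 scalings of the libraries (horizontal axis, ordered by the median). Black bars are the median of all 886 tested rows, which moved from 0.74 to 2.68; under each scaling cgh-1 lies above it, pgl-1 close to it and car-1 below it, since a scaling shifts all rows nearly alike.

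**Figure D4:**
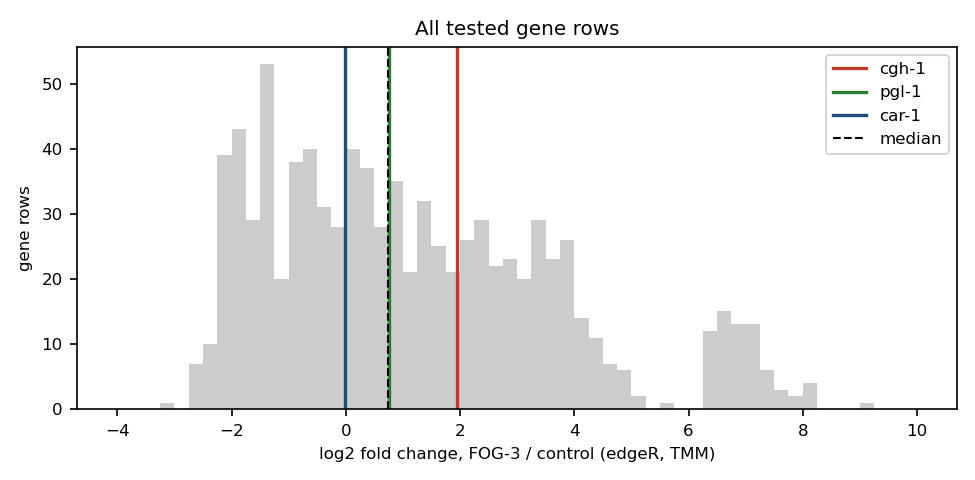
Number of tested gene rows (vertical axis) by log2 fold change with TMM (horizontal axis, bins of a fixed width). Vertical lines mark car-1 at -0.02, pgl-1 at 0.76 and cgh-1 at 1.95, and the dashed line the median of 0.74; cgh-1 lies to the right of 64.3% of rows.

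The division of reads among these 3 mRNAs needs no scaling between libraries. In FOG-3 libraries cgh-1 made up 62.3% to 68.5% of their summed reads. In controls it was 75% of 4 reads in C1, 0% of 4 in C2, 14.3% of 7 in C3 and 44.8% of 29 in C4. The FOG-3 libraries were alike, and the controls spread from below to above them, with C1 the 1 control above all FOG-3 libraries.

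Pooled, cgh-1 was 65.0% of 717 reads in FOG-3 libraries (exact Clopper-Pearson 95% interval 61.4% to 68.5%) and 38.6% of 44 reads in controls (24.4% to 54.5%). Car-1 was 16.2% in FOG-3 (13.6% to 19.1%) and 36.4% in controls (22.4% to 52.2%). Pgl-1 was 18.8% (16.0% to 21.9%) and 25% (13.2% to 40.3%). The intervals of cgh-1 and of car-1 did not overlap between the groups and those of pgl-1 did, for counting error only. They leave out the spread between control libraries, and a rise in 1 share lowers the others, so they are no test of a difference. In C4 alone the intervals were 26.4% to 64.3% for cgh-1 and 17.9% to 54.3% for car-1. Both overlap the pooled FOG-3 intervals. The deepest control, C4, gave 29 of the 44 control reads.

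**Figure D5:**
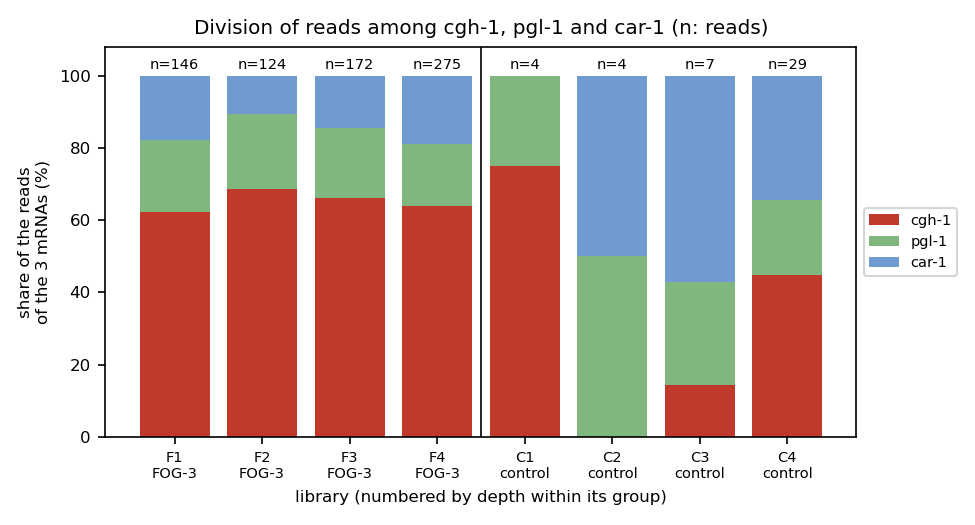
Share of cgh-1 (red), pgl-1 (green) and car-1 (blue) in the summed reads of the 3 mRNAs (vertical axis, percent) in each library (horizontal axis, numbered by depth within a group), with the number of reads above each bar. Cgh-1 takes 62.3% to 68.5% in FOG-3 libraries and 0% to 75% in controls, where 3 of the 4 bars rest on 7 reads or fewer.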

How the data were processed

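The authors deposited raw read counts per WormBase gene ID for 8 libraries. STAR 2.4.2 and HTSeq were used, per the submitters' processing notes. Not given in the sources used here are the build, annotation, strand setting, treatment of multiply mapping reads and any collapsing of PCR copies, so intervals and floors cover counting error only. Reads outside genes (mean 11.5% in FOG-3, 3.70% in controls) and over several genes (0.648% and 0.380%) stayed out of library sizes and tests.

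All gene rows were fitted by quasi-likelihood in R 4.3.3 (edgeR 4.0.16, F test on group with no other term, TMM, default filter with minimum count 10 and minimum total 15). Benjamini-Hochberg adjustment ran over all tested rows, with calls at 0.05. The filter required 131.9 CPM, by library totals, in 4 libraries. The SE is the log2 fold change over the root of its F statistic. Alternatives used DESeq2 1.42.0 and limma 3.58.1. The fit was tested on simulated data, in which both groups shared the same mean composition apart from a set of changed rows. That test does not cover the difference in composition between the groups seen here. Counting intervals of ratios are exact conditional binomial (95%), and a count of 0 was floored at 3 reads over the group.

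The 9 members and the lists were chosen with earlier results of these data known. All 9 are named whatever their values. The lists of other germ granule genes, P body genes and tissue markers, and the search for rows most like cgh-1, were to be named through a table pairing symbols with IDs. None (0) of the table's IDs is in the RefSeq table of 46926 genes, so they were not used here. The columns give each library's group but not its replicate number, and p-values rest on the spread of these libraries, which may be technical.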

Additional observations from a re-analysis of the deposited data

Results flagged for a closer look

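In 9 groups of 4 libraries with at least 10 reads of a gene, the gap of an extreme library to its nearest neighbour was set against the range of the group (Dixon's ratio at its 95% level). Chance passes this level in about 1 of 20 groups of normal values with equal spread. The control levels rest on few reads at unlike depths, so that rate need not hold here. The ratio singled out 3 values. FOG-3 library F4, the deepest, had the lowest cgh-1 level of its group at 631 CPM, where the other 3 lay between 713 and 716 CPM. The spread of the whole group, 41.9 CPM, was no larger than the 66.7 CPM of counting error. Control C2 had the highest pgl-1 level of its group at 176 CPM, from 2 reads. Control C1 had a car-1 level of 0 CPM, from 0 reads in the shallowest library.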

How the results depend on the processing

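No paired analysis was possible because the columns do not carry the replicate numbers of the labels. The count of 1 mRNA called higher (cgh-1) moved to 3 with library totals, DESeq2's size factors, its own test and scaling on the most abundant row, where 67.3%, 66.4%, 63.4% and 79.7% of all rows were called higher. It moved to 2 with upper-quartile and TMMwsp factors, without a filter and with 1 CPM in 4 libraries, where pgl-1 joined and 49.7%, 50.3%, 7.75% and 22.3% of all rows were called higher. Leaving out each library gave 1 to 2, with 2 without FOG-3 library F2. In those fits 42.8% to 53.5% of all rows were called higher. None (0) of the 9 was called lower in any setting, where 0.677% to 27.5% of all rows were. With the default filter the tested members were let in by their FOG-3 level, so this 0 is not read as a result about them. In the order upper-quartile, TMMwsp, DESeq2 factors, totals, most abundant row, the log2 fold change of car-1 moved from -0.02 to 0.21, 0.31, 1.15, 1.19 and 1.95. It was 1.16 with DESeq2's test, 0.084 with limma-voom, 0.59 without a filter, 0.47 with 1 CPM in 4 libraries, and -0.19 to 0.76 leaving out each library (0.53 without F2, 0.030 without F3, 0.10 without C2, 0.18 without C3, 0.76 without C4). Pooled ratios moved with totals from 3.75 to 8.65 (cgh-1), 1.68 to 3.87 (pgl-1) and 0.991 to 2.29 (car-1). The ratio of glh-4 to 3 control reads moved from 0.592 to 1.37 with totals, and was 1.78 against 1 read. Cgh-1 was 3.36 on the log2 scale without control C4, where the median of all tested rows was 1.79. Totals for pooled ratios and leaving out the 2 shallowest controls (cgh-1 at 1.82, adjusted p = 0.000954) were chosen after seeing the data. Thinned to 14964 reads, 96 rows were tested, cgh-1 among them (3.60) and pgl-1 and car-1 not. Each scaling other than TMM gave a higher median over all rows. Beyond that and the number of rows tested, the cause was not tested.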
